A study of Mus musculus with 8 samples.

Results

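The genes described are 10 subunits of the integrins that are not restricted to leukocytes: Itgb8, Itgav, Itgb1, Itgb4, Itgb5, Itga1, Itga3, Itga6, Itga7 and Itga8. They were taken by gene symbol from a table of 24421 genes counted in mouse dorsal root ganglia (DRG), and all 10 passed the filter on low counts that 17328 genes passed. Itgb8 was chosen because its counts differed between 30d and 0d in these same libraries, so its values at 30d and 0d are given as a description, without a test, and the other 9 subunits are the ones tested there.

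The study followed the recovery from acute inflammatory pain. Carrageenan, a seaweed polysaccharide that inflames the tissue around it, was injected into the left hind paw as 20 µl of a 1% solution, and RNA was taken from the lumbar ganglia before injection (0d, untreated) and after 1 (1d), 3 (3d) and 30 days (30d). All mice were wild-type C57BL/6J, male by the study's methods and 8 weeks old by the labels, which give that age at 30d too, while the methods give a range of ages that starts there. There were 2 libraries for each time point, both made from RNA of 2 to 3 mice, so that a replicate is a pool and the spread between mice within a pool is not seen. No vehicle-injected group was analysed here, and the injection, the time that passed and the handling of the mice cannot be told apart.

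Libraries held 44123208 to 73580338 counts, and the factors that scaled them lay between 0.993 and 1.01. The labels name DRG neurons, but the methods describe whole dissected ganglia, and markers of other cells were measured beside those of neurons. The summed level of 8 neuron markers was 11961 to 12823 CPM (counts scaled to library size) in the 8 libraries, led by Nefh and Tubb3, which encode a neurofilament and a neuronal tubulin. That of 6 markers of Schwann cells, the myelinating glia of the nerve, ranged from 3297 to 5851 CPM, led by the myelin genes Pmp22 and Mbp. Sums of the other lists ranged from 731 to 811 CPM for satellite glia (5 genes, led by Glul and Ednrb), 1178 to 1682 CPM for fibroblasts and perineurium (6 genes, led by Dcn and Col1a2), 148 to 167 CPM for smooth muscle and pericytes (6 genes, led by Rgs5 and Pdgfrb), 102 to 117 CPM for endothelial cells (6 genes, led by Cdh5 and Flt1) and 60.1 to 74.8 CPM for macrophages (6 genes, led by Csf1r and Mrc1). Skeletal muscle markers (8 genes, led by Acta1 and Myh4) summed to 21.8 to 140 CPM and those of red blood cells (6 genes, led by Hba-a1 and Hba-a2) to 146 to 544 CPM. No marker was at 0 counts in all libraries. In whole ganglia, fewer cells of a type and less RNA per cell cannot be told apart.

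Integrins are receptors made of an α and a β subunit that cross the cell membrane and bind the extracellular matrix or proteins on other cells. The αv subunit (Itgav) pairs with several β subunits, whereas β8 (Itgb8) is known to pair with αv alone. The αvβ8 receptor binds the latent form of TGF-β, a secreted growth factor held inactive by its propeptide, and takes part in its activation. In peripheral nerve, the laminin receptors α6β4, α6β1 and α7β1 are known from Schwann cells and perineurium, and the β1 receptors also serve the growth of axons on laminin.

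Itgb8 lies on the minus strand of chromosome 12 (chr12:119162803-119238276, mm10) and its counted model has 14 exon blocks and 3096 bases. None of these bases overlaps an exon of another gene. The model holds 28.0% of the 11060 exon bases that GENCODE vM21 gives the gene, and 66.6% of the bases outside it are annotated as untranslated. Itgav lies on the plus strand of chromosome 2 (chr2:83724397-83806917), with 30 exon blocks and 7055 bases. The sequences before the start sites of this pair are shown because β8 needs αv as its partner. Each is the 250 bases before the start, 5′ to 3′ on the strand of the gene, from RefSeq on GRCm38.p6 (chr12:119238277-119238526, minus strand, and chr2:83724147-83724396, plus strand). Capitals mark a CCAAT box or a GC box (GGGCGG), searched on both strands.
Itgb8: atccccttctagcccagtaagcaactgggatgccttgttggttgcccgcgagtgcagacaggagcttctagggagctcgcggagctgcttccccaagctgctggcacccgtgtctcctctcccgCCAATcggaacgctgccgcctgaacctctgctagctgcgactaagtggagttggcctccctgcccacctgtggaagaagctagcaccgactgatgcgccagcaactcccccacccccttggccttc
Itgav: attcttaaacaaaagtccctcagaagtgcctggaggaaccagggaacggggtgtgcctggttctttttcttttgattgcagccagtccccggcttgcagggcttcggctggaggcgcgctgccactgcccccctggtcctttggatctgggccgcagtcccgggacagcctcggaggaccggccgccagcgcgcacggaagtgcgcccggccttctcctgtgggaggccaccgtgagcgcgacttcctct

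Both sequences were richer in G and C than most. G and C made up 62.4% of the Itgb8 window and 64.4% of the Itgav window, against a median of 52.4% over all promoters of that length in the table. The Itgb8 window held 1 CCAAT box, at base 125, and no GC box, and the Itgav window held neither. A CCAAT box was found in 33.8% of all promoters and a GC box in 32.7%. These matches are a description of the letters in the window.

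Levels can be compared between genes only per length, so they are given here as CPM per kilobase of the counted model. Itgb1, the β subunit shared by most of the α subunits described, stood highest at 0d with 80.1 ± 4.65 CPM per kilobase (SD, n = 2, as in all values that follow in this form). Itga7, a laminin receptor subunit, followed with 42.0 ± 0.170. Itga6 (21.6 ± 4.75), Itga3 (18.7 ± 0.565), Itgb8 (17.4 ± 1.03), Itgb4 (15.0 ± 1.95) and Itgb5 (13.3 ± 0.628) came next. In this run the libraries of Itga6 and Itga3 overlapped, as did those of Itgb4 and Itgb5, whereas both Itgb8 libraries lay below both of Itga3 and above both of Itgb4 by small margins. Itgav stood at 8.08 ± 0.663, Itga1, a collagen receptor subunit, at 1.34 ± 0.349 and Itga8 at 0.234 ± 0.0202, each apart from the gene above it. Models that leave out exon bases affect these levels, and the models of Itgb8 and Itga1 held 28.0% and 32.2% of the annotated exon bases.

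**Figure D1:**
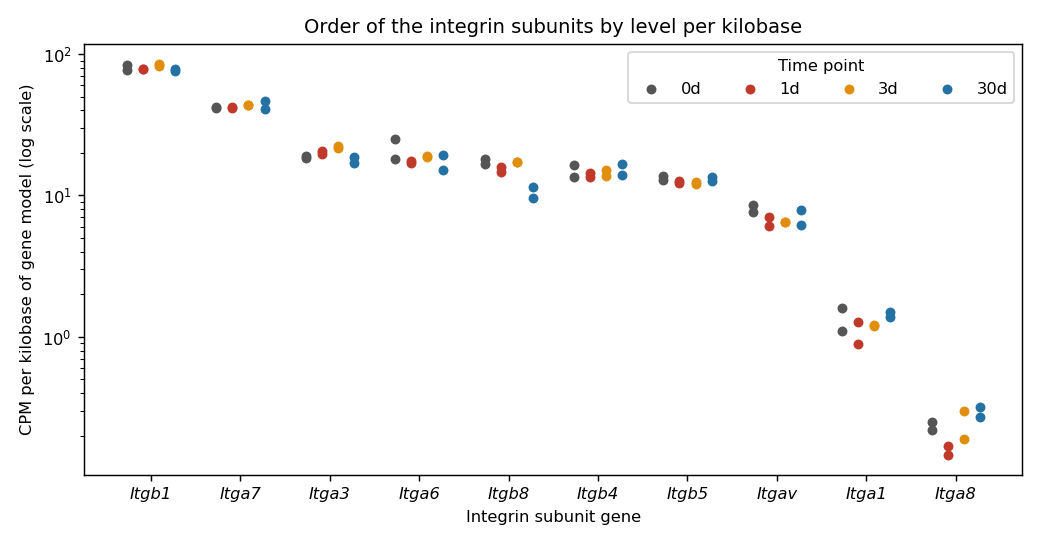
Level of each integrin subunit in CPM per kilobase of gene model (vertical axis, log scale), with the genes ordered by their mean over the time points. Each point is 1 library and colours mark the time points. Itgb1 and Itga7 stood above the rest in every library, Itga8 was lowest, and the Itgb8 points of 30d sat below those of the other time points.

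Itgb8 was lower at 30d than at any other time. Its level was 56.2 and 51.7 CPM in the 0d libraries, 45.1 and 49.6 CPM at 1d, 53.6 and 53.7 CPM at 3d, and 35.6 and 29.9 CPM at 30d. Both 30d libraries lay below each of the other 6. The 30d level was 0.606 of that at 0d, a log2 fold change of −0.72 (standard error, SE, 0.08), and the log2 fold change of 30d against 3d was −0.71 (SE 0.08). Of all genes tested, 4 (0.0231%) were called at 30d against 0d at an edgeR adjusted p under 0.05 and Itgb8 was chosen from these, so nothing is read from this share. The decrease was −0.60 on the log2 scale without the second 30d library and −0.85 without the first.

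The 1d and 3d libraries were outside the contrast that chose Itgb8, and the comparison between them is the one tested for it. They did enter the estimate of the spread that all time points share, so this test is not independent of the choice. Itgb8 was 0.18 higher at 3d than at 1d on the log2 scale (SE 0.08), with both 3d libraries above both of 1d, and did not pass the test (edgeR adjusted p = 1). Against the 0d libraries, which helped to choose the gene, its values are a description. Both 1d libraries were below both 0d libraries, by a log2 fold change of −0.19 (SE 0.08), and the 3d level overlapped that of 0d, at −0.01 (SE 0.08).

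**Figure D2:**
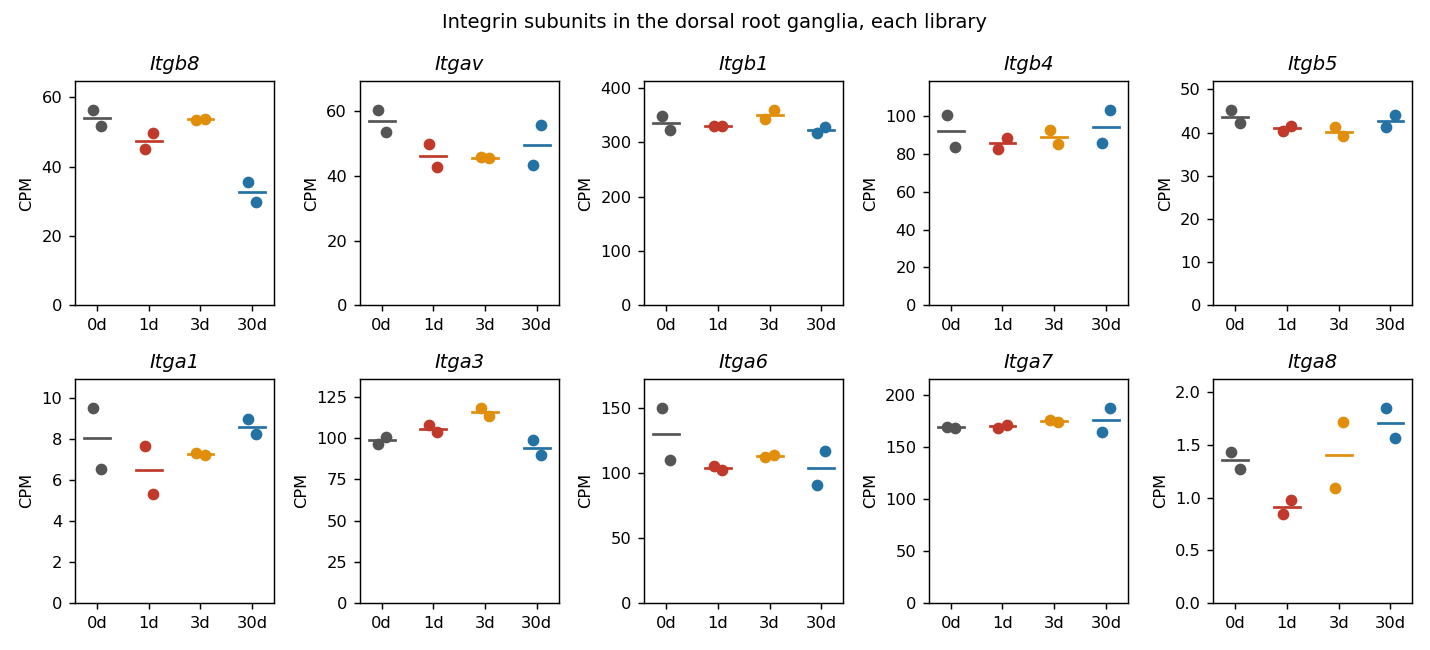
CPM of the 10 integrin subunits in each library (vertical axes, from 0) at 0d, 1d, 3d and 30d (horizontal axes). Points are the 2 libraries of a time point and lines their mean. The 30d points of Itgb8, at 35.6 and 29.9 CPM, sit below all of its other points, those of Itgav differ from each other, at 43.3 and 55.7 CPM, and Itga3 is highest at 3d.

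Itgav, the partner of Itgb8, did not pass the test in any comparison. Its level was 60.3 and 53.7 CPM at 0d, 49.8 and 42.7 CPM at 1d, 45.8 and 45.5 CPM at 3d, and 43.3 and 55.7 CPM at 30d. The libraries of 1d and 3d were below both of 0d, while the 30d pair lay far apart and 1 of them was within the range of 0d. The log2 fold change was −0.30 at 1d (SE 0.12, edgeR adjusted p = 1), −0.32 at 3d (SE 0.12, edgeR adjusted p = 0.731) and −0.20 at 30d (SE 0.12, edgeR adjusted p = 0.539), each against 0d. A fit limited to the 4 libraries of 0d and 3d gave an adjusted p of 0.0407 at 3d.

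The balance of the pair followed from these levels. Per kilobase, Itgb8 stood at 2.13 and 2.20 times Itgav in the 0d libraries, 2.06 and 2.65 times at 1d, 2.66 and 2.69 times at 3d, and 1.88 and 1.22 times at 30d. Both 3d libraries were above both 0d libraries and both 30d libraries were below all others, and the 30d pair differed from each other more than the 0d or 3d pairs did. Over the 8 libraries, the log2 levels of Itgb8 and Itgav had a Pearson r of −0.02, against a median of 0.08 over 12079 genes. The ratio at 30d holds the Itgb8 values that chose the gene, and the ratio of RNAs says nothing of how much receptor was made.

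**Figure D3:**
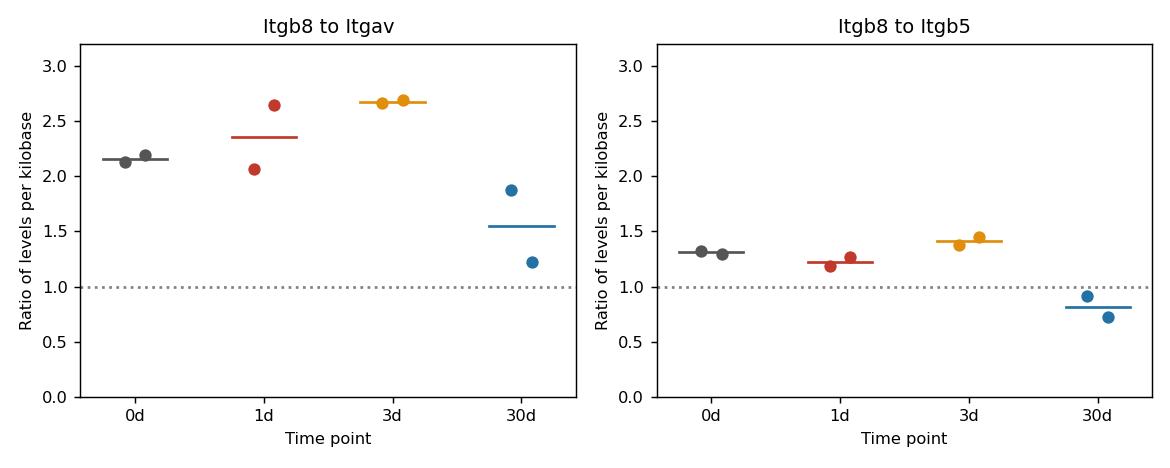
Ratio of the level of Itgb8 per kilobase to that of Itgav (left) and of Itgb5 (right) in each library, with lines at the mean of a time point and a dotted line at equal levels. Against Itgb5 the 30d libraries, at 0.916 and 0.719, fell below equal levels while the others lay between 1.19 and 1.45.

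Among the β subunits that can pair with αv (β1, β3, β5, β6 and β8), Itgb8 held 15.2% and 15.0% of the summed level per kilobase at 0d. In the 1d libraries its share was 13.3% and 14.4%, in those of 3d 14.9% and 14.5%, and in those of 30d 11.1% and 9.12%. Itgb1, which also pairs with many other α subunits, held 69.0% to 73.8% in all libraries. Each share depends on the Itgb8 values in the sum, including those of 30d that chose the gene. Itgb5, whose αvβ5 receptor binds vitronectin, held 10.0% to 12.7%, Itgb3, its counterpart in αvβ3, 3.17% to 4.06%, and Itgb6 0.271% to 0.406%.

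Itgb1 and Itgb5, which can also pair with αv, were not called in any comparison. Itgb1 was 350 and 322 CPM at 0d, 329 and 330 CPM at 1d, 343 and 359 CPM at 3d, and 317 and 328 CPM at 30d. Its largest log2 fold change was −0.12 at 30d against 3d (SE 0.05, edgeR adjusted p = 0.262), where both 30d libraries were below both of 3d. Itgb5 ranged from 39.2 to 45.2 CPM over all libraries, and its libraries of 1d and of 3d were below both of 0d, by 0.09 and 0.12 on the log2 scale (SE 0.07 for each, edgeR adjusted p = 1 and 0.916). Of the words of 50 bases in its longest transcript, 8.17% also occur in 1 other annotated gene.

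Itga3, the α subunit of the laminin receptor α3β1, was the only one of the other 9 subunits called in a comparison of time points. It stood at 96.5 and 101 CPM at 0d, 108 and 104 CPM at 1d, 118 and 113 CPM at 3d, and 98.9 and 89.5 CPM at 30d. The libraries of 1d were above those of 0d and those of 3d above those of 1d, while the range at 30d overlapped that at 0d. From 3d to 30d Itga3 fell by 0.30 on the log2 scale (SE 0.06, edgeR adjusted p = 0.0224). This was 1 call among the 9, with 0.935% of all genes called in that comparison. The call was lost without robust estimation (adjusted p = 0.0513), without the first or the second 3d library (0.427 and 0.181) and without the second 30d library (0.107), with the same sign each time. The increase at 3d against 0d, 0.23 on the log2 scale (SE 0.06), missed the threshold (edgeR adjusted p = 0.167) and was called by DESeq2 (adjusted p = 0.0491). Against 0d, the log2 fold change was 0.10 at 1d (SE 0.06, edgeR adjusted p = 1) and −0.07 at 30d (SE 0.06, edgeR adjusted p = 0.662).

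Itga6, which forms laminin receptors with β4 and β1, varied most between replicates among the abundant subunits. Its level was 150.2 and 110 CPM at 0d, 105 and 102 CPM at 1d, 112 and 114 CPM at 3d, and 90.6 and 117 CPM at 30d. Of the 50-base words of its longest transcript, 6.5% also occur in 1 other gene. No comparison passed the test, and the log2 fold changes against 0d were −0.32 at 1d, −0.20 at 3d and −0.32 at 30d (SE 0.20 for each, edgeR adjusted p = 1, 0.999 and 0.585). The Schwann cell markers had their extremes in the same libraries as Itga6, but not the same order in between. Their summed level was 5851 and 4453 CPM at 0d, 4374 and 4475 CPM at 1d, 5148 and 5108 CPM at 3d, and 3297 and 4491 CPM at 30d, so that the library with the highest Itga6 was the one with the highest sum and the library with the lowest Itga6 the one with the lowest. Their part in the Itga6 values was not tested. All 6 markers had a log2 fold change below 0 at 30d against 0d, with a median of −0.30, and against 3d, with a median of −0.31, where Itgb8 was low too. In the first 30d library Itgb8 was at 75.9% of its mean over the libraries and the Schwann cell sum at 70.9% of its own, and in the second they were at 63.7% and 96.6%. Of the 5 satellite glia markers, 4 had a log2 fold change below 0 at 30d against 0d (median −0.25) and 4 against 3d (median −0.21). Their summed level was 808 and 803 CPM in the 0d libraries, 750.4 and 735 in those of 1d, 811 and 803 in those of 3d, and 731 and 740.0 in those of 30d. None of these glial markers was called, and the part of either list in the Itgb8 values was not tested.

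**Figure D4:**
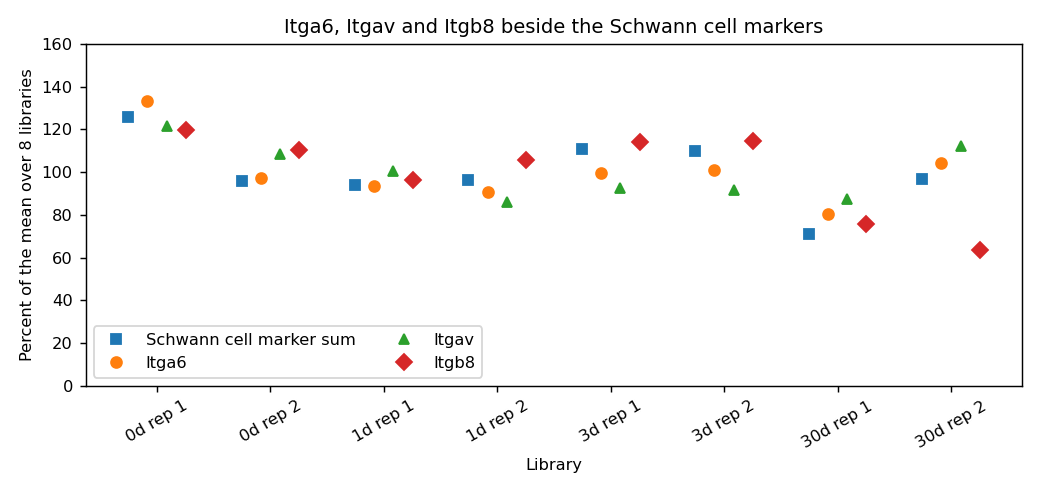
Itga6, Itgav, Itgb8 and the summed CPM of 6 Schwann cell markers in each library, as a percent of the mean over the 8 libraries (vertical axis, from 0). Itga6 and the marker sum are both highest in the first 0d library and both lowest in the first 30d library, whereas Itgb8 is lowest in the second 30d library.

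Itgb4, which pairs with α6 alone, was 101 and 83.9 CPM at 0d, 82.9 and 88.7 CPM at 1d, 93.0 and 85.3 CPM at 3d, and 85.7 and 103 CPM at 30d. Its groups overlapped in every comparison and its log2 fold changes lay between −0.11 and 0.08. Itga7 was 169 and 168 CPM at 0d, 168 and 171 CPM at 1d, 176 and 174 CPM at 3d, and 164 and 187 CPM at 30d. Its log2 fold changes were between 0.01 and 0.06, with standard errors of 0.05. Of the model bases of Itgb4 55 overlap Galk1, of those of Itga7 8 overlap Mettl7b and of those of Itga8 13 overlap E030013I19Rik, each on the other strand, and the counting did not use strand.

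The 2 scarce subunits had wide errors. Itga1 ranged from 5.31 to 9.51 CPM, with log2 fold changes against 0d of −0.30 at 1d, −0.15 at 3d and 0.10 at 30d (SEs 0.20, 0.19 and 0.19, edgeR adjusted p = 1, 0.999 and 0.869). Of the 50-base words of its longest transcript, 5.5% also occur in other genes, 243 in all. Itga8, whose α8β1 receptor binds nephronectin, was 1.44 and 1.27 CPM at 0d, 0.841 and 0.980 CPM at 1d, 1.09 and 1.72 CPM at 3d, and 1.85 and 1.57 CPM at 30d, with as few as 39 counts in a library. Both 1d libraries were below both of 0d and both 30d libraries above them. Neither difference passed the test, with log2 fold changes of −0.57 (SE 0.35, edgeR adjusted p = 1) and 0.34 (SE 0.33, edgeR adjusted p = 0.72).

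**Figure D5:**
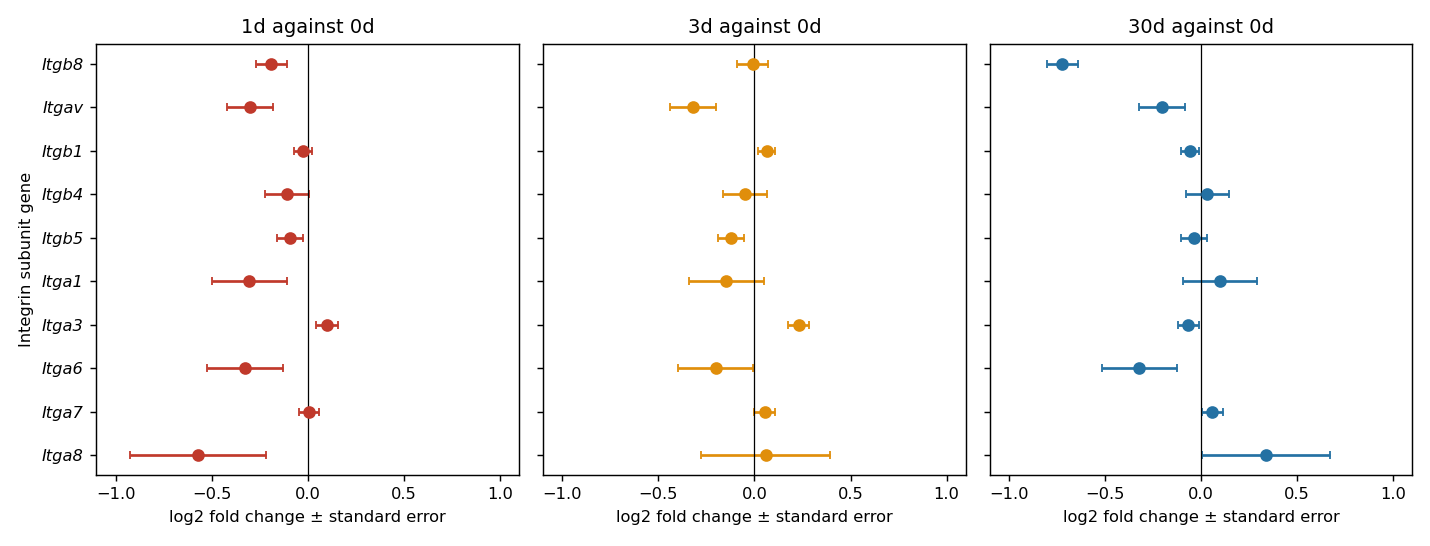
Log2 fold change of each integrin subunit at 1d, 3d and 30d against 0d (horizontal axes), with bars of 1 standard error from the edgeR fit of all libraries. Itgb8 at 30d, at −0.72, lies farthest from 0 in its panel and was chosen for that difference. The 3 panels share the 0d libraries.

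Itgb8 is left out of the counts against 0d and of those that use 30d. It stays in those of 3d against 1d, whose test shares the estimate of the spread that helped to choose it. Of the 9 other subunits, edgeR called 0 at 1d against 0d, where 60 of all genes (0.346%) were called, and 0 at 3d against 0d, where 38 (0.219%) were. An unadjusted p under 0.05 was reached by 1 of the 9 at 1d (Itgav), beside 4.47% of all genes, and by 2 at 3d (Itgav and Itga3), beside 5.94%, and DESeq2 called 0 and 1 (Itga3). At 30d against 0d, 0 of the 9 were called by edgeR or by DESeq2, and 0 reached an unadjusted p under 0.05, beside 12.3% of all genes. For 3d against 1d, edgeR called 0 of all 10 with 0.289% of all genes called, 2 had an unadjusted p under 0.05 (Itgb8 and Itga3), beside 4.24% of all genes, and DESeq2 called 0. In the test of a difference at any time point, which called 1.02% of all genes, edgeR called 0 of the 9, and Itga3 came nearest with an adjusted p of 0.0508 and was called by DESeq2.

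Libraries that do not overlap between a pair of time points were frequent among all genes. Of the 9 subunits other than Itgb8, they were seen for 5 at 1d against 0d (31.9% of all genes), 4 at 3d against 0d (39.5%), 1 at 30d against 0d (39.6%), 5 at 3d against 1d (37.6%) and 4 at 30d against 3d (46.4%). The median log2 fold change of the 9 against 0d was −0.11 at 1d, −0.05 at 3d and −0.03 at 30d. It was 0.09 at 3d against 1d and 0.08 at 30d against 3d, while that of all genes was close to 0 each time. At 1d 7 of the 9 were below 0, and at 3d against 1d 7 of the 9 were above 0. The count at 1d depends on the first 0d library. Itgb1 and Itgb4 averaged 330 and 85.8 CPM at 1d, above the second 0d library at 322 and 83.9 CPM. Itga1 averaged 6.49 CPM at 1d, close to the 6.55 CPM of that library. The comparisons between time points share libraries with each other.

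The genes whose log2 level was most like that of Itgb8 over the 8 libraries, among 12079 with a mean of at least 5 CPM, were Lrrtm2 (Pearson r = 0.97), Serf2 (0.96), Gucy1a2 (0.96), Mmachc (0.96) and Ddah1 (0.96). Lrrtm2 encodes a synaptic adhesion protein, Gucy1a2 a subunit of the nitric oxide receptor guanylate cyclase and Ddah1 an enzyme that degrades an inhibitor of nitric oxide synthase. All 5 had their lowest values in the 30d libraries, but over a narrower range. Gucy1a2 went from 59.4 ± 2.03 CPM at 0d to 48.5 ± 2.29 at 30d, Ddah1 from 68.0 ± 0.660 to 56.5 ± 0.109 and Lrrtm2 from 34.7 ± 0.307 to 32.1 ± 0.355. Among the other subunits, Itga3 (0.64) and Itgb1 (0.60) had the highest r and Itga7 (−0.40) the lowest. These values are descriptions over libraries that share the same 2 low points.

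Of the remaining integrin genes and those of the αvβ8 and adhesion pathways, edgeR called none of the 75 tested in any comparison. An unadjusted p under 0.05 was reached by 5 at 1d, 3 at 3d and 10 at 30d against 0d, where 4.47%, 5.94% and 12.3% of all genes reached it. The number was 5 at 3d against 1d and 7 at 30d against 3d, beside 4.24% and 13% of all genes. DESeq2 called Itgam at 30d against 0d and in the test of any time point, and no other gene. Of 9 other integrin subunits, Itgb3 and Itga4, an α subunit that binds fibronectin and VCAM1, had the highest mean CPM, which does not account for length. The median log2 fold change of all 9 against 0d was −0.07 at 1d, −0.02 at 3d, and 0.01 in the 30d libraries.

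The leukocyte integrins were measured low, and 6 of 7 were tested. Itgam, the α subunit of the complement receptor CR3, was 4.33 and 4.53 CPM at 0d, 4.85 and 4.97 CPM at 1d, 6.39 and 6.17 CPM at 3d, and 9.97 and 6.36 CPM at 30d. Both 30d libraries were above both 0d libraries, and the log2 fold change of 0.88 (SE 0.19) missed the threshold (edgeR adjusted p = 0.10). Itgb2, its β subunit, was 4.67 and 4.99 CPM at 0d, and 8.76 and 4.03 CPM at 30d. The fold changes of all 6 at 30d were above 0, with a median of 0.52 on the log2 scale. The second 30d library did not share this direction for every gene. Itgb2, Itgal and Itgax were at 4.03, 1.64 and 0.743 CPM there, below their 0d means of 4.83, 1.84 and 0.772 CPM. Itgam, Itgb7 and Itgae were above their 0d means in that library too. The first 30d library, the higher of the pair for Itgam and Itgb2, also had the highest sum of red blood cell markers, at 544 CPM against 286 in the second 30d library and 146 and 294 at 0d, and their part in these values was not tested.

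The genes around TGF-β did not pass the test in any comparison by edgeR. A list of 8 genes held the TGF-β ligands and the latency proteins, the latter holding TGF-β in its latent form. Those with the highest mean CPM were Ltbp3 and Ltbp4, both binding proteins of latent TGF-β. Ltbp3 was 131 and 116 CPM at 0d and 149 and 132 CPM at 30d, both above both 0d libraries, with a log2 fold change of 0.18 (SE 0.06, edgeR adjusted p = 0.273). Of 7 receptors and Smads, the signal carriers of the pathway, Smad2 ranged from 69.7 to 79.2 CPM, and the co-receptor Tgfbr3 from 60.9 to 78.9 CPM. The lists had a median log2 fold change at 30d of 0.01 and 0.05. Of 8 target genes, the median was 0.09, and those with the highest mean CPM were Ski, at 120 to 128 CPM, and Tgfbi, at 87.0 to 139 CPM, which encodes a matrix protein that TGF-β induces.

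Of 19 matrix ligands of integrins, 17 had a log2 fold change below 0 at 1d, 15 at 3d and 13 at 30d against 0d, with medians of −0.18, −0.08 and −0.18, and the 3 comparisons share the 0d libraries. The first 0d library was above the second for every ligand, and the count at 1d depends on it. The mean at 1d was above the second 0d library for all ligands except Tnc and Lama4. Col4a1, for example, was 238 and 168 CPM at 0d and 188 and 170 CPM at 1d. The collagen genes Col1a2 and Col1a1 had the highest mean CPM, again without regard to length. Col1a2 was 552 CPM in the first 0d library and 333 to 423 CPM in the other 7, and Col1a1 was 404 CPM in that library and 220 to 282 CPM in the others. The same library had the highest sums of Schwann cell, skeletal muscle and fibroblast markers, whose part was not tested. The fibroblast sum contains both collagens, and that of its other 4 genes was 726 CPM there, 747 in the second 30d library and 568 to 671 in the others. Of the proteins that link integrins to the cytoskeleton, 18 of 19 genes were tested, with medians between −0.0039 and 0.02. The talins Tln2 and Tln1, which bind the tails of β subunits, ranged from 341 to 360 CPM and from 254 to 296 CPM.

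Of the cell type markers, edgeR called 3 genes. Lum, a matrix proteoglycan of fibroblasts, was lower at 1d than at 0d by a log2 fold change of −0.49 (SE 0.09, edgeR adjusted p = 0.0326). Cx3cr1, the fractalkine receptor of macrophages, was lower at 3d than at 0d (−1.02, SE 0.14, edgeR adjusted p = 0.00794) and lower than at 1d (−0.75, SE 0.15, edgeR adjusted p = 0.0476). Myh1, a myosin of skeletal muscle, was lower at 1d and at 3d than at 0d (−1.47 and −1.61, edgeR adjusted p = 0.0324 and 0.0237) and higher at 30d than at 3d (1.35, edgeR adjusted p = 0.0292). All 8 skeletal muscle markers had a log2 fold change below 0 at 1d, at 3d and at 30d against 0d, with medians of −1.17, −0.70 and −0.58. At 30d against 3d 3 of them were above 0 and 5 below, with a median of −0.03. Their summed level was 140 and 73.3 CPM at 0d and 30.6 and 65.2 CPM at 1d. It was 69.2 and 66.4 CPM at 3d and 113 and 21.8 CPM at 30d. The second 0d library was thus close to those of 3d and below the first of 30d.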

How the data were processed

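Paired reads were trimmed (cutadapt 2.10) by the authors, who mapped them to mm10 (STAR 2.7.5a) and counted read pairs on the exons of UCSC genes with featureCounts 2.0.1, without strand, counting a pair for every gene it overlapped and leaving out reads with several positions. The deposited values are these counts per gene, without normalization. The 10 subunits and all gene lists were chosen with earlier results of these data known.

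In R 4.3.3, the 8 libraries were fitted together with edgeR 4.0.16 (filterByExpr, TMM, quasi-likelihood F-test with robust estimation) with limma 3.58.1 loaded. Benjamini-Hochberg adjustment ran over 17328 genes. The threshold was 0.05. CPM are counts scaled by TMM, log2 CPM had a prior count of 2, and a standard error was taken as |log2 fold change| over √F. A non-significant p does not show equal levels. No column was left unused. Counts were tested on simulated data with 200 changed genes. Replicates differed by more than counting noise (chi-square per degree of freedom of 7.10 to 25.0). Labels do not say whether pools came from separate batches, so p-values measure the spread between these pools. Hba-a1 and Hba-a2 had identical values. A marker of the Schwann cell list is not reported here and was left out of its sum.

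All 10 subunits were named, with the 5 genes most like Itgb8 over the libraries, and from each list the called genes and the 2 with the highest mean CPM. Gene models were compared with GENCODE vM21 (GRCm38), and promoters came from RefSeq. The alternatives were DESeq2 1.42.0 and its size factors, no filter, no robust estimation, a block on replicate number, a fit of only the groups compared, a smooth trend on gene length removed, and each library left out.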

Additional observations from a re-analysis of the deposited data

Results flagged for a closer look

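The change of Itga3 from 0d differed between 3d and 30d, since the test of 30d against 3d gave a log2 fold change of −0.30 (edgeR adjusted p = 0.0224), with both 30d libraries below both 3d libraries. That call was lost in 4 of the alternatives. Itga8 moved in opposite directions, with a log2 fold change against 0d of −0.57 at 1d and 0.34 at 30d and every library on its own side of the 0d libraries, but the difference between these 2 changes was not tested and the gene had as few as 39 counts in a library. With 2 libraries in a group, no single library could be tested as an outlier.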

How the results depend on the processing

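Of 550 fold changes of the subunits under the alternatives, 4 lost a call (Itga3 at 30d against 3d), 4 gained one, and 30 changed sign, all uncalled. These counts of calls leave out Itgb8 at 30d. The numbers of subunits below include it, and since its 30d values chose it, nothing on its stability is read from them. The number of subunits called at 3d against 0d, 0 in the report, was 1 without the filter and by DESeq2 (Itga3) and 2 with the compared groups alone (Itgav and Itga3). At 30d against 0d the single call, Itgb8, was 0 without robust estimation and with the compared groups alone. At 30d against 3d the 2 calls, Itgb8 and Itga3, became 1 without robust estimation and ranged from 1 to 2 when libraries were left out. At any time point the 1 call became 2 without the filter, by DESeq2 and with the replicate block, and 1 to 2 when libraries were left out. The cause was not tested.

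Replicate differences correlated across genes by −0.014 to 0.044 between time points. With 1 difference for each time point, these values cannot decide whether libraries of the same replicate number shared a batch. With the replicate block, all-gene calls went from 60 to 73, 38 to 50 and 4 to 69 at 1d, 3d and 30d against 0d. Without the filter they were 95, 89 and 177, and by DESeq2 106, 109 and 186. When libraries were left out they ranged from 26 to 86, 1 to 63 and 28 to 202. At 3d against 1d and 30d against 3d they ranged from 5 to 43 and 12 to 525. With the compared groups alone they were 64, 121, 0, 260 and 273 in that order of comparisons. Without robust estimation they were 20 at 3d and 0 at 30d against 0d and 92 at 30d against 3d, and with the gene length trend removed 13 at 30d against 0d. At 3d against 1d, 30d against 3d and any time point, they were 99, 358 and 463 without the filter and 108, 376 and 482 by DESeq2. The replicate block gave 77, 225 and 280, and leaving out libraries 51 to 401 at any time point. Itga8 is limited by its low counts.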
